A study of Homo sapiens with 6 samples.

Results

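Nuclear-encoded respiratory chain genes were taken as the protein-coding genes whose symbol begins with NDUF, UQCR, COX4 to COX8, ATP5F, ATP5M or ATP5P, or is SDHA, SDHB, SDHC, SDHD or ATP5IF1. The rule used names and no measured value, and it found 98 genes of the 60676 in the tables. RNA was sequenced from the neuroblastoma cell line SK-N-BE, of human origin, which takes on neuronal traits under retinoic acid. All cells had been differentiated for 1.5 days in medium with 10 μM retinoic acid and transfected with siRNA, so the control group was neither undifferentiated nor untransfected. The si-SCR group (3 libraries) received a scrambled siRNA, and the si-CyCoNP group (3 libraries) an siRNA pool aimed at exon 2 of CyCoNP, a long noncoding RNA transcribed from LINC02381. The knockdown was transient, in a single cell line, and nothing in the labels says that replicates came from separate cultures, so p-values measure the spread between these libraries, which may be technical. The study looked for transcripts that change upon CyCoNP depletion, and ATP5PO, a gene of the set, was its RT-qPCR reference in motor neurons made from hiPSC, while GAPDH served for SK-N-BE.

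The respiratory chain of the inner mitochondrial membrane passes electrons from NADH through complex I, or from succinate through complex II, to ubiquinone, then through complex III and cytochrome c to complex IV, which reduces oxygen. Complexes I, III and IV pump protons, and the return of these protons drives complex V, the ATP synthase. Most subunits are encoded in the nucleus and imported, a small set is encoded by mitochondrial DNA, and neurons depend strongly on this route for ATP.

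The count table held 3762009 to 4799407 counted fragments per library. LINC02381 had 274, 208 and 315 counts in si-SCR against 20, 30 and 12 in si-CyCoNP (log2 fold change -3.78, edgeR quasi-likelihood test, adjusted p = 6.84e-14). All 14 adrenergic neuroblastoma markers examined, among them HAND2 and TH, were expressed, which fits the labelled cell type. Of these 14, 10 fell and MYCN rose, so that 78.6% passed beside 35.4% of protein-coding genes tested. Their summed level was 2802 to 3282 FPKM in si-SCR against 2209 to 2397 FPKM in si-CyCoNP (FPKM, counted fragments scaled to gene length and library total). GATA3, 1 of the 10, did not pass in DESeq2 (adjusted p = 0.310) or without si-SCR replicate 1 or si-CyCoNP replicate 2 (edgeR adjusted p = 0.385 and 0.179). With log2(FPKM + 1) neither GATA3 nor DBH passed (limma adjusted p = 0.397 and 0.0666). Of 15 mesenchymal or Schwann-like markers, PRRX1, COL1A2 and SOX10 were at 0 in every library. Of the 8 tested 62.5% passed, 3 higher and 2 lower, beside 35.4% of protein-coding genes tested. FN1 and COL1A1 rose (log2 fold changes 2.88 and 1.68), and SNAI2 and VIM fell (-1.27 and -0.43). The summed level of these markers was 117 to 143 FPKM in si-SCR and 129 to 137 FPKM in si-CyCoNP. The part of these markers in the results that follow was not tested, and in bulk RNA fewer cells of a type and less RNA per cell cannot be told apart.

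Most respiratory chain genes differed little between the groups, and those that passed the test moved in both directions. Of the 98 genes, 87 passed the expression filter (a mean of at least 1 FPKM in either group), and 67 of all members lay above 10 FPKM. At an adjusted p under 0.05 with no minimum size, 10 rose and 17 fell in si-CyCoNP (edgeR, Benjamini-Hochberg adjustment over 13966 genes). That was 31.0% of the members tested, against 28.4 percent of all genes tested and 35.4% of the 10511 protein-coding genes tested. With library totals in place of TMM scaling the split was 12 higher and 10 lower, and with log2(FPKM + 1) it was 10 higher and 11 lower. With TMM scaling 11.5% of the members tested passed higher and 19.5% lower. The same shares were 14.2 percent and 14.2 percent of all genes tested, and 17.3% and 18.1% of protein-coding genes tested. In size, 55 of the 87 members lay within 0.25 of 0 on the log2 scale. So did 5880 of all 13966 genes tested and 5127 of the 10511 protein-coding genes tested. Of the 27 members that passed, 17 had a log2 fold change smaller than 0.5 in either direction. The members' log2 fold changes had a median of -0.12 and a lowest value of -1.51, beside a median of 0.01 over all genes tested and -0.01 over protein-coding genes tested. There were 28 positive and 59 negative values among the members, and with library totals 36 and 51. All genes tested had 7065 positive and 6901 negative values, and protein-coding genes tested 5189 and 5322, with TMM scaling. Leaving out 1 library at a time gave 10 to 20 members lower, with 11 without si-SCR replicate 2 and, in si-CyCoNP, 10 without replicate 1 and 11 without replicate 2. Of the 27 that passed, 14 kept the threshold in every alternative.

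Under the study's threshold, an adjusted p under 0.05 with a log2 fold change beyond 1, NDUFA6 and SDHD were called lower and 0 members higher. Among all genes tested 2.98 percent were called lower and 2.28 percent higher by this rule. DESeq2 also called 0 members higher, and 0 had a log2 fold change above 1 at an unadjusted edgeR p under 0.05. The normalised counts (CPM, counts scaled to the library total after TMM correction) of 42 of the 87 members (48.3%) did not overlap between groups, against 40.2 percent of all genes tested and 47.2% of protein-coding genes tested. All 27 members that passed were among the 42.

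**Figure D1:**
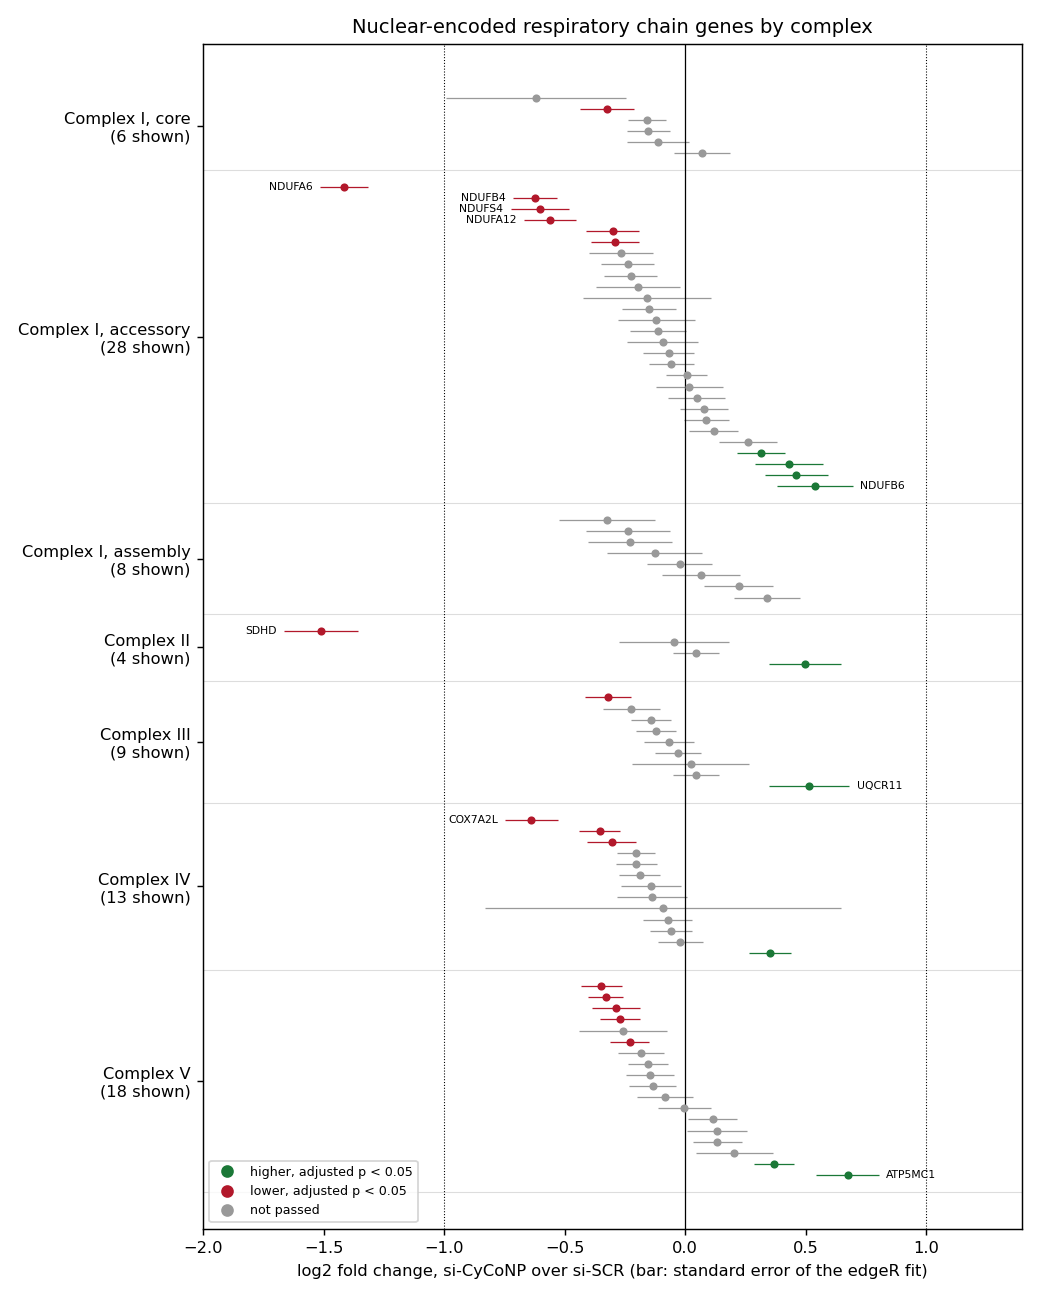
Log2 fold change of 86 of the 87 tested genes (si-CyCoNP over si-SCR, horizontal axis, bars are the standard error of the edgeR fit), sorted within each complex, with genes that passed in green (9 higher) or red (17 lower) and named where the change was beyond 0.5. Only NDUFA6 and SDHD lay beyond the dotted lines at -1 and 1, and most genes lay near 0.

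The 11 members that were not tested had low counts. Of these, COX6A2, COX7A1, COX6B2, COX7B2 and the readthrough gene NDUFC2-KCTD14 had 0 counts in every library. COX8C, ATP5MGL and ATP5MF-PTCD1 stayed at or under 3 counts in every library, while NDUFA4L2 had 1 to 6, NDUFA7 1 to 8 and NDUFA13 4 to 14 counts. The tissue-restricted subunit isoforms of heart, muscle and testis were thus at or near 0 in both groups, while their ubiquitous partners were expressed. COX6A1 stood at 33.5 ± 2.43 FPKM, COX6B1 at 104 ± 2.29, COX7A2 at 47.4 ± 2.43, COX7B at 51.3 ± 1.85 and COX8A at 54.2 ± 2.30 FPKM in si-SCR (SD, n = 3 libraries for this and every later ± value not marked SE). A group at 3 counts or fewer was treated as at the floor, and no fold was given for these genes.

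Promoter sequence was looked at across the set because genes of the respiratory chain are known targets of the factors NRF1, GABPA and YY1. RefSeq promoters (GRCh38.p14, 250 bases before to 50 after the start) were matched for 78 of the 98 members, and each motif was searched on both strands. The letters CGCATGCG, a core recognised by NRF1 that reads the same on both strands, stood in 11 member promoters (14.1%) and in 2.19% of all 27305 promoters. CCGGAAG, the core of ETS factors such as GABPA, stood in 21 (26.9%) and 10.7%, AAGATGGCG, recognised by YY1, in 8 (10.3%) and 1.85%, and GGGGCGGGG, recognised by SP1, in 10 (12.8%) and 15.99%. CGCATGCG stood in 1 of 8 promoters of genes that rose, 5 of 15 of genes that fell and 5 of 48 of genes that did not pass, and AAGATGGCG in 1, 4 and 2 of the same promoters. CCGGAAG stood in 2, 2 and 16 of them and GGGGCGGGG in 0, 4 and 6, with no test of these small counts. A match describes letters in the window and says nothing of binding. The following stretches, on the strand of the gene with the motif in capitals, show the NRF1 letters near genes that moved most or in opposite directions (SDHD chr11:112086764-112086771 and NDUFB4 chr3:120596178-120596185, both lower on the plus strand, NDUFA8 chr9:122159775-122159782, higher on the minus strand) and the YY1 letters in NDUFA6 (chr22:42090739-42090747, minus strand, lower) and SDHB (chr1:17054014-17054022, minus strand, higher).
SDHD, NRF1 letters: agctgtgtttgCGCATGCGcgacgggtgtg
NDUFB4, NRF1 letters: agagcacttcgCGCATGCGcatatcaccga
NDUFA8, NRF1 letters: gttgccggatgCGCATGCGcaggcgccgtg
NDUFA6, YY1 letters: atgctttggcAAGATGGCGgggagcggcg
SDHB, YY1 letters: gtcaggagccAAGATGGCGgcggtggtcg
The motif began 109 bases before the start in SDHD, 158 before it in NDUFB4 and 25 bases after it in NDUFA6.

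Complex I, the NADH dehydrogenase, held the member with the smallest p, an accessory subunit that fell. NDUFA6 (ENSG00000184983, chr22:42085526-42090884, minus strand, GRCh38), an accessory subunit of complex I, had 591, 477 and 695 counts in si-SCR against 267, 204 and 238 in si-CyCoNP. Its level was 102, 94.3 and 108 FPKM and then 41.4, 35.7 and 42.7 FPKM. All 3 si-CyCoNP libraries lay far below all 3 si-SCR libraries. The log2 fold change came to -1.41 ± 0.10 (SE), a 2.66-fold decrease that left 37.5% of the si-SCR level (edgeR, adjusted p = 3.27e-11). NDUFA6-DT, a noncoding gene that starts on the other strand beside it and was looked at after the values had been seen, was too low to test, with 15, 12 and 12 counts in si-SCR against 9, 9 and 8 in si-CyCoNP.

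Among the 7 core subunits of complex I tested, which carry the electrons from NADH to ubiquinone, NDUFS7, which holds the last iron-sulfur cluster before ubiquinone, fell (log2 fold change -0.32, edgeR adjusted p = 0.0280). This call was lost without si-SCR replicate 2, si-CyCoNP replicate 1 or si-CyCoNP replicate 3 (edgeR adjusted p = 0.0941, 0.156 and 0.0710). It was also lost in DESeq2 (adjusted p = 0.0634), with library totals (edgeR adjusted p = 0.0936) and with log2(FPKM + 1) (limma adjusted p = 0.146). NDUFV1, the flavin-binding subunit that oxidises NADH, stood at 24.4 ± 1.02 and 23.0 ± 0.663 FPKM, without passing. NDUFS1, NDUFS3, NDUFS8 and NDUFV2 did not pass either, and NDUFV2 was low, with 10 to 22 counts.

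The accessory subunits of complex I, which surround the catalytic core and are needed for its assembly and stability, are the largest group of the set. Of 28 tested, 4 rose, 6 fell and 18 did not pass, so that 35.7% passed beside 35.4% of protein-coding genes, with a median log2 fold change of -0.10. NDUFB4 had 515, 447 and 541 counts in si-SCR against 377, 332 and 343 in si-CyCoNP. Its groups did not overlap, and its level fell from 62.5 ± 1.95 to 42.5 ± 1.36 FPKM (log2 fold change -0.62, edgeR adjusted p = 7.76e-06). NDUFS4, an accessory subunit whose loss causes Leigh syndrome, fell from 38.8 ± 2.73 to 26.7 ± 0.814 FPKM, and NDUFA12, another accessory subunit, from 36.4 ± 1.18 to 25.8 ± 1.38 FPKM (log2 fold changes -0.60 and -0.56). NDUFB11 and NDUFB5 fell by less, with log2 fold changes of -0.29 and -0.30. In the other direction NDUFB6 rose from 13.5 ± 0.650 to 20.4 ± 3.17 FPKM (log2 fold change 0.54, edgeR adjusted p = 0.0107). NDUFB1 rose from 11.5 ± 0.563 to 16.6 ± 0.540 FPKM (log2 fold change 0.46, edgeR adjusted p = 0.00850). NDUFA8 (0.43) and NDUFAB1 (0.31), the mitochondrial acyl carrier protein, also rose. The call of NDUFB6 was lost without si-CyCoNP replicate 1 (log2 fold change 0.40, edgeR adjusted p = 0.114). Those of NDUFB11, NDUFB5, NDUFA8 and NDUFAB1 were each lost on leaving out any of 4 or more single libraries, among them si-SCR replicates 1 and 2 and si-CyCoNP replicate 2, with edgeR adjusted p of at most 0.183. In DESeq2 NDUFB11, NDUFB5 and NDUFA8 did not pass (adjusted p = 0.0588, 0.0898 and 0.0612). The 18 that did not pass ran from -0.27 (NDUFC1) to 0.26 (NDUFA1) in log2 fold change. NDUFS5 had the highest FPKM of the accessory genes, 134 ± 5.92 and 147 ± 7.33, and did not pass. Such an order depends on the gene length, which joins all exons in the FPKM table. Rescaled to the canonical transcript, a choice made after seeing the data, the highest mean level was that of NDUFS7 among core genes, NDUFB9 among accessory genes, NDUFAF8 among assembly factors and COX4I1 in complex IV, while UQCRH in complex III and ATP5F1B in complex V led on both scales.

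Of the 8 complex I assembly factors of the NDUFAF family 0 passed in edgeR or in DESeq2, and 1, NDUFAF4, had an unadjusted edgeR p under 0.05. Of 12 other complex I assembly genes 0 passed in either tool, and 1, COA1, had an unadjusted edgeR p under 0.05. Both groups are small, and 35.4% of protein-coding genes tested and 28.4% of all genes tested passed in edgeR. The median log2 fold changes were -0.07 and -0.05. NDUFAF2 had 148, 72 and 153 counts in si-SCR against 104, 121 and 113 in si-CyCoNP, so that its groups overlapped. NDUFAF4 was the only factor of the 8 whose groups did not overlap (10.7 ± 0.815 and 14.2 ± 1.85 FPKM), with an adjusted p of 0.0663 in edgeR, and it passed with library totals (edgeR adjusted p = 0.0285). Without si-SCR replicate 3 NDUFAF1 passed as lower (edgeR adjusted p = 0.0401).

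Sequence in the 3′ UTR was looked at because the study also examined CyCoNP together with miR-4492. The RefSeq entry of hsa-miR-4492 (chr11:118910765-118910781, plus strand, GRCh38.p14) is shown with its seed, bases 2 to 8, in capitals, followed by the 3′ UTR stretches of 2 members with the complementary letters CCAGCCC in capitals, on the strand of the gene. They were chosen as the members with these letters that passed the test, NDUFA6 lower (chr22:42085676-42085682, minus strand) and UQCR11 higher (chr19:1597435-1597441, minus strand).
hsa-miR-4492: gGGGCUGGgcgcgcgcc
NDUFA6, 3′ UTR: aacaagctCCAGCCCttaaaatg
UQCR11, 3′ UTR: ccccaggcCCAGCCCacgtgcag
Of the 87 tested members, 9 (10.3%) held CCAGCCC in the 3′ UTR of the canonical transcript, against 23.3% of 10511 protein-coding genes tested, with median 3′ UTR lengths of 194 and 1389 bases. The other 7 with the letters did not pass, and SDHD held none. A match is not a tested site, and miR-4492 itself was not measured here.

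Complex II, succinate dehydrogenase, is a complex of 4 nuclear-encoded subunits that also works in the TCA cycle, and its subunits moved apart. SDHD (ENSG00000204370, chr11:112086824-112120016, plus strand), a membrane anchor of the complex and a gene whose germline loss predisposes to paraganglioma, had 154, 143 and 198 counts in si-SCR against 66, 52 and 68 in si-CyCoNP. The highest si-CyCoNP library lay well below the lowest si-SCR library. Its level fell from 13.8 ± 1.00 to 5.06 ± 0.756 FPKM, or -1.51 ± 0.153 (SE) in log2 fold change and a 2.85-fold decrease (edgeR, adjusted p = 1.77e-08). In the annotation 23.8% of the canonical SDHD transcript lies under exons of another gene of the same strand, where fragments of either gene are dropped in counting.

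SDHB, the iron-sulfur subunit, rose while SDHD fell. It had 111, 92 and 130 counts in si-SCR against 190, 126 and 188 in si-CyCoNP, groups that did not overlap on normalised counts although the lowest si-CyCoNP library lay close to the si-SCR range. The level rose from 11.1 ± 0.586 to 16.4 ± 3.42 FPKM (log2 fold change 0.50 ± 0.149 SE, edgeR adjusted p = 0.0131). Without si-CyCoNP replicate 3 the log2 fold change of SDHB was 0.35 with an adjusted p of 0.124 in edgeR, and with log2(FPKM + 1) its limma adjusted p was 0.0547. The other membrane anchor, SDHC, had 5.77 ± 0.35 and 6.24 ± 0.166 FPKM (log2 fold change 0.05, edgeR adjusted p = 0.763), and SDHA, the flavin-binding catalytic subunit, 1.37 ± 0.294 and 1.39 ± 0.396 FPKM. The ratio of SDHD to SDHB in FPKM was 1.16, 1.29 and 1.27 in si-SCR against 0.289, 0.344 and 0.301 in si-CyCoNP. SDHD thus lay above SDHB in each si-SCR library and below it in each si-CyCoNP library, and this order held per canonical transcript length (means of 28.7 and 25.4 in si-SCR against 10.6 and 37.6 in si-CyCoNP, in FPKM rescaled to that length, a choice made after seeing the data). The place of SDHC depended on the length, since its FPKM lay below that of SDHD in si-SCR while the rescaled level, 62.5 and 67.6, lay above SDHD in both groups.

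TIMM8B, a mitochondrial import chaperone whose gene starts on the opposite strand beside SDHD (chr11:112084800-112086798), was looked at after the values had been seen. It had 212, 198 and 257 counts in si-SCR against 309, 295 and 309 in si-CyCoNP (log2 fold change 0.35, edgeR adjusted p = 0.0139). The neighbour with which SDHD shares its start region rose while SDHD fell.

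**Figure D2:**
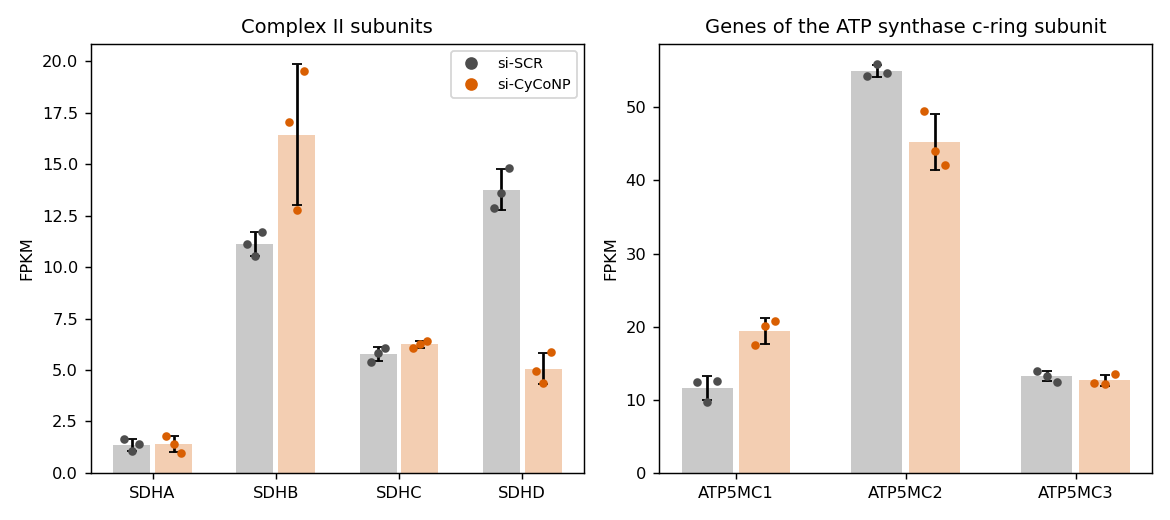
FPKM of the 4 complex II subunits (left) and of the 3 genes that encode the c-ring subunit of ATP synthase (right), with 1 point per library, bars for the mean and error bars for the SD of 3 libraries. SDHD fell from 13.8 to 5.06 FPKM while SDHB rose from 11.1 to 16.4, and ATP5MC1 rose from 11.6 to 19.5 while ATP5MC2 fell from 55.0 to 45.2.

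Complex III, which passes electrons from ubiquinol to cytochrome c, had 9 members, all tested, of which 1 rose and 1 fell. That was 22.2%, beside 35.4% of protein-coding genes tested, and the median log2 fold change was -0.07. UQCRC1, a core subunit, fell from 32.5 ± 1.51 to 27.3 ± 1.22 FPKM (log2 fold change -0.32, edgeR adjusted p = 0.0113). UQCR11, a small subunit, rose from 7.89 ± 0.374 to 11.9 ± 1.99 FPKM (log2 fold change 0.51, edgeR adjusted p = 0.0208). Neither pair of groups overlapped. The call of UQCRC1 was lost without si-SCR replicate 2 or si-CyCoNP replicate 2 (edgeR adjusted p = 0.0599 and 0.0591), and that of UQCR11 without si-SCR replicate 2 or si-CyCoNP replicate 3 (edgeR adjusted p = 0.0588 and 0.17) or in DESeq2 (adjusted p = 0.0646). UQCRH, the hinge subunit, had the highest FPKM of the complex (71.8 ± 7.56 and 77.7 ± 5.17 FPKM) and did not pass, and neither did UQCRC2, UQCRFS1, UQCRB, UQCRQ, UQCR10 or UQCRHL. UQCRHL is a copy of UQCRH, and fragments that match both are dropped in counting, so the level of each is uncertain.

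Complex IV, cytochrome c oxidase, had 13 tested members of 19, of which 1 rose, 3 fell and 9 did not pass. Thus 30.8% passed, beside 35.4% of protein-coding genes tested. The log2 fold changes of 12 of the 13 were negative, with a median of -0.14, and with library totals 10 of 13 were. COX7A2L, a relative of subunit 7A that joins complexes III and IV in supercomplexes, had 331, 259 and 353 counts in si-SCR against 212, 217 and 220 in si-CyCoNP. The si-CyCoNP libraries all lay below the si-SCR libraries, and the level fell from 13.1 ± 0.739 to 8.82 ± 0.832 FPKM (log2 fold change -0.64 ± 0.110 SE, edgeR adjusted p = 5.47e-05). COX7A2, the ubiquitous isoform of subunit 7A itself, stood at 47.4 ± 2.43 and 49.0 ± 2.42 FPKM with overlapping groups.

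COX5A, a subunit without tissue isoforms, had the highest mean FPKM of complex IV. It fell from 120 ± 2.51 to 98.1 ± 6.47 FPKM (log2 fold change -0.35, edgeR adjusted p = 0.00258), and COX5B from 50.5 ± 0.555 to 42.8 ± 1.31 FPKM (log2 fold change -0.30, edgeR adjusted p = 0.0238). The call of COX5B was lost without si-SCR replicate 1, si-SCR replicate 2, si-CyCoNP replicate 1 or si-CyCoNP replicate 2 (edgeR adjusted p = 0.0532, 0.0693, 0.0524 and 0.0928), with library totals (edgeR adjusted p = 0.0847) or in DESeq2 (adjusted p = 0.0546). NDUFA4, named after complex I but now counted as a subunit of complex IV, was the member that rose, with 652, 534 and 818 counts in si-SCR against 947, 856 and 926 in si-CyCoNP. Its level was 44.8 ± 4.27 and 59.9 ± 4.04 FPKM (log2 fold change 0.35, edgeR adjusted p = 0.00308), and its groups did not overlap. Of the isoforms of subunit 4, the ubiquitous COX4I1 stood at 57.4 ± 0.593 and 52.2 ± 2.08 FPKM and narrowly missed the threshold (log2 fold change -0.20, edgeR adjusted p = 0.0522). COX4I2, the lung and hypoxia isoform, had 5, 5 and 6 counts and then 0, 12 and 4.

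**Figure D3:**
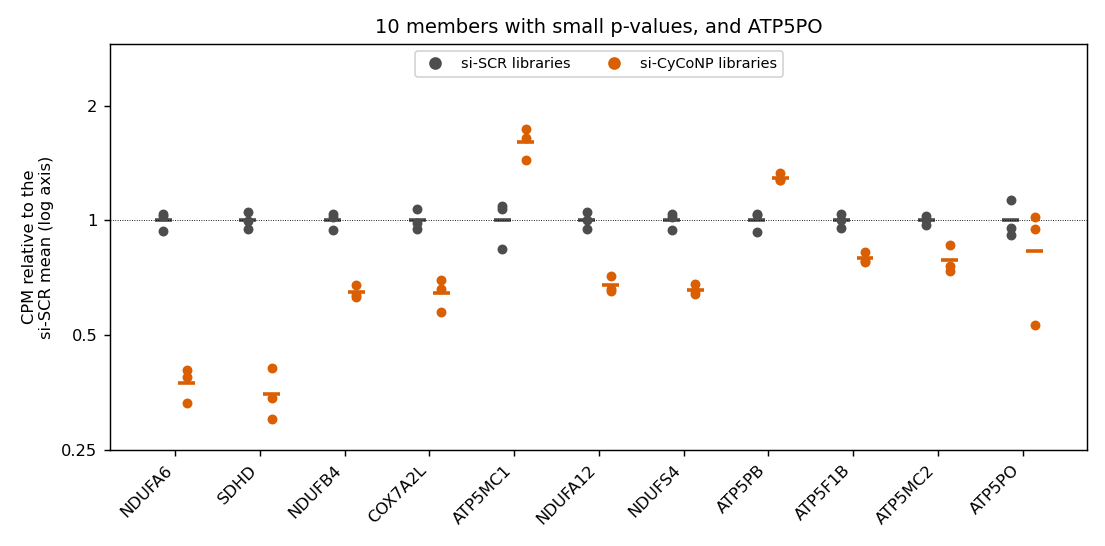
Normalised count of each library divided by the si-SCR mean of the gene (log axis), for 10 of the members with the smallest p-values and ATP5PO, with 1 point per library and short bars for group means. The groups are apart for all 10, while for ATP5PO a si-CyCoNP library lies far below the others and the groups overlap.

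Complex V, the ATP synthase, consists of a catalytic F1 head with a central stalk, a peripheral stalk that holds the head still, and a membrane part with the rotating c-ring. Of 18 tested members 2 rose, 5 fell and 11 did not pass, with a median log2 fold change of -0.14. The share that passed was 38.9%, beside 28.4% of all genes tested and 35.4% of protein-coding genes tested. All 5 genes of the head and central stalk had negative log2 fold changes (median -0.23), also with library totals (median -0.16), and 3 of them fell, of which ATP5F1B alone passed with library totals. ATP5F1B, the catalytic beta subunit and the most abundant gene of the whole set, had 3750, 3440 and 4146 counts in si-SCR against 3467, 3107 and 3149 in si-CyCoNP. Raw counts of the groups overlapped, but levels did not, with 390, 409 and 387 FPKM against 323, 327 and 339. The log2 fold change came to -0.33 ± 0.074 (SE) (edgeR, adjusted p = 0.00118). ATP5F1C and ATP5F1E of the central stalk fell as well, with log2 fold changes of -0.27 and -0.23, and ATP5F1A and ATP5F1D had values of -0.15 and -0.15 without passing. The call of ATP5F1C was lost without si-CyCoNP replicate 1 (edgeR adjusted p = 0.0839), and that of ATP5F1E without si-SCR replicate 1, si-SCR replicate 2, si-CyCoNP replicate 1 or si-CyCoNP replicate 2 (edgeR adjusted p = 0.0777, 0.0921, 0.0812 and 0.167). With library totals these calls were lost as well (edgeR adjusted p = 0.0791 and 0.145), and with log2(FPKM + 1) too (limma adjusted p = 0.0525 and 0.0979). ATP5F1A passed as lower without si-SCR replicate 3 (edgeR adjusted p = 0.0392).

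In the peripheral stalk 1 of 4 genes passed. ATP5PB, subunit b, had 774, 614 and 891 counts in si-SCR against 1180, 1009 and 970 in si-CyCoNP, and rose from 56.3 ± 3.81 to 76.2 ± 1.95 FPKM (log2 fold change 0.37, edgeR adjusted p = 0.00105). ATP5PD, ATP5PF and ATP5PO did not pass. ATP5PB and ATP5F1B, in stalk and head of the same enzyme, thus moved in opposite directions. Among the other membrane subunits ATP5MJ fell (log2 fold change -0.29, edgeR adjusted p = 0.0285), and lost the call without si-SCR replicate 1, si-CyCoNP replicate 1 or si-CyCoNP replicate 2 (edgeR adjusted p = 0.148, 0.121 and 0.107), with library totals (edgeR adjusted p = 0.0983) or in DESeq2 (adjusted p = 0.0552), while ATP5ME, ATP5MF, ATP5MG and ATP5MK did not pass. ATP5IF1, the inhibitor that keeps the enzyme from hydrolysing ATP, stood at 14.8 ± 0.636 and 17.1 ± 0.272 FPKM without passing.

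The c-ring subunit is encoded by 3 genes, ATP5MC1, ATP5MC2 and ATP5MC3, whose mature proteins are identical, and their relative levels shifted. ATP5MC1 (ENSG00000159199, chr17:48892765-48895871, plus strand) had 139, 95 and 158 counts in si-SCR against 219, 223 and 226 in si-CyCoNP. The groups did not overlap, and the level rose from 11.6 ± 1.65 to 19.5 ± 1.78 FPKM (log2 fold change 0.67 ± 0.130 SE, edgeR adjusted p = 2.20e-04). ATP5MC2 fell from 55.0 ± 0.813 to 45.2 ± 3.85 FPKM (log2 fold change -0.35, edgeR adjusted p = 0.00241), and ATP5MC3 had 13.2 ± 0.728 and 12.6 ± 0.760 FPKM (log2 fold change -0.13, edgeR adjusted p = 0.344). As a share of the summed FPKM of the 3 genes, ATP5MC1 went from 14.5% ± 1.94 to 25.2% ± 2.79, ATP5MC2 from 68.9% ± 1.80 to 58.4% ± 3.77, and ATP5MC3 stood at 16.6% ± 0.857 and 16.4% ± 1.16. The summed FPKM was 80.6, 78.8 and 79.8 in si-SCR against 79.2, 76.2 and 76.5 in si-CyCoNP, groups that overlapped. This overlap is on FPKM, which has no composition scaling, unlike the fold changes above. The TMM factors were 0.961, 0.969 and 1.00 in si-SCR against 1.02, 1.03 and 1.01 in si-CyCoNP, and TMM scaling divides by them. It thus lowers si-CyCoNP relative to si-SCR, so an unchanged total cannot be read from this sum. Gene lengths in the FPKM table join all exons, and with the canonical transcript length instead, a choice made after seeing the data, ATP5MC1 went from 10.9% ± 1.52 to 19.9% ± 2.56.

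ATP5MC2 and ATP5F1B lie on chromosome 12 with LINC02381, at 0.449 Mb and 2.49 Mb from it, both on the opposite strand. NDUFA12 is on the same chromosome at 40.7 Mb. These 3 fell, as did 18.1% of protein-coding genes tested. COX6A1 and NDUFA9, also on chromosome 12, did not pass, and NDUFA4L2, there at 3.09 Mb from LINC02381, was too low to test. The part of this position was not tested.

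ATP5PO (ENSG00000241837, chr21:33903453-33915814, minus strand), the peripheral stalk subunit OSCP and the reference gene used for the motor neurons and not for the cells measured here, did not pass but was measured with a wide spread. It had 123, 88 and 121 counts in si-SCR against 123, 118 and 59 in si-CyCoNP. The groups overlapped, and si-CyCoNP replicate 3 lay far below the other 5 libraries, at 4.49 FPKM against 7.38 to 9.03. The log2 fold change came to -0.26 ± 0.183 (SE) (edgeR, adjusted p = 0.328), and leaving out si-CyCoNP replicate 3 gave -0.03, leaving out si-CyCoNP replicate 2 gave -0.42. Its SD within groups was 0.381 on the log2 scale, wider than that of every other tested member except NDUFA11 and, with 1 library at 0, COX4I2, while that of ATP5F1B was 0.0551. GAPDH, the reference for SK-N-BE, differed by -0.02 in log2 fold change (edgeR, adjusted p = 0.868).

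The RT-qPCR primers of the study for this gene, listed under its older name ATP5O, were placed on the canonical ATP5PO transcript (756 bases, 7 exons) and are shown with no capitals.
ATP5PO forward primer: actcgggtttgacctacagc
ATP5PO reverse primer: ggtactgaagcatcgcacct
The forward primer lies in exon 1 (chr21:33915777-33915796, GRCh38) and the reverse primer spans exons 1 and 2, for an amplicon of 87 bases. The whole amplicon lies in exons that ATP5PO shares with ENSG00000249209, an annotated readthrough gene of the same strand (chr21:33584687-33931607). Together these shared exons make up 63.8% of the ATP5PO transcript. A fragment that touches exons of both genes is dropped in counting, which leaves the remaining 36.2% of the ATP5PO transcript to give counts, and the readthrough gene itself had 0 counts in every library. By this annotation (GENCODE v44) the amplicon and the counted stretch of ATP5PO do not overlap.

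Shared exons touched other members in the same way. In 9 of the 98 genes at least 50% of the canonical transcript lay under exons of another gene of the same strand, namely ATP5PO, NDUFA11, SDHA, NDUFB8, NDUFA7, NDUFA13, NDUFV2 and the 2 readthrough genes. Their median level was 1.27 FPKM, against 25.1 FPKM in the other 89, and 5 of the 9 were tested. SDHA, NDUFV2 and NDUFA13 encode subunits that the complexes cannot do without, and their counted levels in si-SCR were 1.37, 1.51 and 0.804 FPKM. The part of shared exons in these levels was not tested. A named pseudogene exists for 52 of the members, and fragments that map equally to such a copy are dropped as well.

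**Figure D4:**
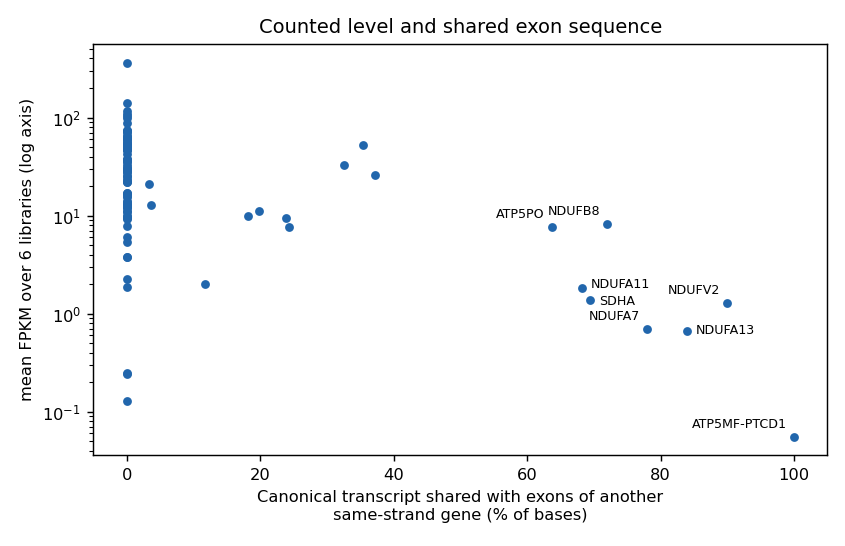
Mean FPKM over 6 libraries (log axis) of each member against the share of its canonical transcript that lies under exons of another gene of the same strand (% of bases), with 1 point per gene and names for shares of at least 50%, and without the 5 genes at 0 counts and 1 other gene. The named genes lie at the lower end of the range, from ATP5MF-PTCD1 at the bottom to ATP5PO and NDUFB8 near 8 FPKM.

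Summed over the 87 tested members the level was lower in si-CyCoNP, which is given as a description with no test. The sum was 7889, 7762 and 7657 CPM in si-SCR against 7140, 6932 and 7244 CPM in si-CyCoNP, so that every si-CyCoNP library lay below every si-SCR library, and the ratio of the means was 0.915. As a plain share of all counts the set took 0.753% ± 0.00683 in si-SCR against 0.722% ± 0.0101 in si-CyCoNP, again without overlap. By complex the ratio on the CPM scale was 0.895 for complex V, 0.906 for the accessory subunits of complex I, 0.915 for complex IV, 0.925 for complex II and 0.936 for complex III. For the core subunits of complex I it was 0.970, but as a plain share of counts they took 0.0590% and 0.0599%, so the direction turned with the scaling. The assembly factors turned as well, with a ratio of 0.996 and plain shares of 0.0192% and 0.0201%. For complex II the plain shares were 0.0158% and 0.0153%, and for complex III 0.0762% and 0.0747%, with libraries of the 2 groups that overlapped in both. Sums weigh abundant genes most, and ATP5F1B alone supplied 3107 to 4146 counts a library.

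**Figure D5:**
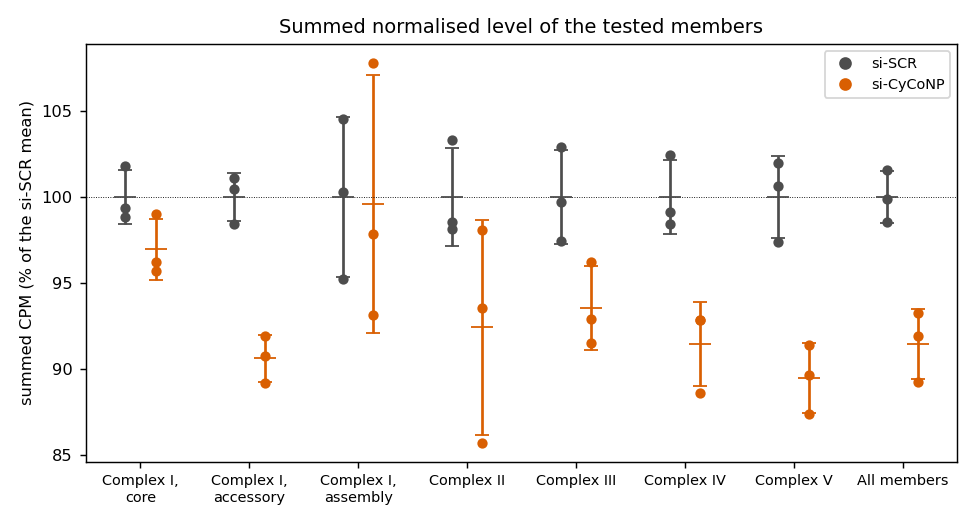
Summed CPM of the tested members of each complex and of all 87, as a percent of the si-SCR mean, with 1 point per library and the mean and SD of 3 libraries beside them. The si-CyCoNP libraries lie below the si-SCR libraries for complexes III, IV and V, the accessory subunits of complex I and the whole set. For complex II they do so only narrowly (highest si-CyCoNP library 159.8 CPM, lowest si-SCR library 159.9 CPM). The groups overlap for the assembly factors and the core subunits of complex I.

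The 13 subunits encoded by mitochondrial DNA, which join the nuclear-encoded ones in complexes I, III, IV and V, showed few differences. Of these 15.4% passed, beside 35.4% of protein-coding genes tested. MT-CO2 (log2 fold change -0.34, edgeR adjusted p = 9.04e-04) and MT-CYB (-0.24, edgeR adjusted p = 0.0237) fell, and 11 did not pass, with a median of -0.13. The call of MT-CYB was lost without si-SCR replicate 2, si-CyCoNP replicate 1 or si-CyCoNP replicate 3 (edgeR adjusted p = 0.175, 0.0984 and 0.0615), and with log2(FPKM + 1) neither gene passed (limma adjusted p = 0.0502 for MT-CO2 and 0.235 for MT-CYB). Their summed level was 77455 to 88993 FPKM in si-SCR against 78412 to 81532 FPKM in si-CyCoNP, ranges that overlapped.

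Of the regulators of mitochondrial biogenesis 4 of 16 tested rose and 2 fell, and the PGC-1 coactivators moved apart. The share that passed, 37.5%, was close to the 35.4% of protein-coding genes tested. PPARGC1A, the best known coactivator of respiratory genes, had 115, 61 and 85 counts in si-SCR against 75, 48 and 52 in si-CyCoNP, and fell (log2 fold change -0.69, edgeR adjusted p = 0.0121). Its relatives PPRC1 (log2 fold change 0.62, edgeR adjusted p = 2.63e-06) and PPARGC1B (0.56, edgeR adjusted p = 0.0104) rose. The level of PPRC1 was 17.4, 17.7 and 20.2 FPKM in si-SCR against 29.5, 29.8 and 29.9 in si-CyCoNP, far above that of PPARGC1A at 1.04 to 2.46 FPKM in all libraries. ESRRG fell (-0.50), the mitochondrial helicase TWNK and the mitochondrial RNA polymerase POLRMT rose (0.43 and 0.26), and NRF1, GABPA, YY1 and TFAM did not pass. DESeq2 passed 4 of the 6, without TWNK and POLRMT (adjusted p = 0.0955 and 0.118), and with log2(FPKM + 1) PPARGC1A, PPARGC1B, ESRRG and TWNK did not pass (limma adjusted p = 0.225, 0.116, 0.0757 and 0.073). PPARGC1A was lost without si-SCR replicate 1 or si-CyCoNP replicate 2, TWNK without either of these or si-SCR replicate 2, and POLRMT without any library except si-CyCoNP replicate 1 (edgeR adjusted p of at most 0.229).

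Genes that work beside the complexes also moved in both directions. Passing shares were 11.8% for electron carriers and ubiquinone synthesis, 28.6% for the TCA cycle and 42.9% for carriers of ADP and phosphate. Of the cristae organisers 3 of 10 passed. Beside these stood 35.4% of protein-coding genes tested and 28.4% of all genes tested. Only the carriers of ADP and phosphate, 7 genes, lay above the protein-coding share. Of 17 electron carriers and ubiquinone synthesis genes, CYCS, which encodes cytochrome c, rose (log2 fold change 0.49, edgeR adjusted p = 7.52e-05), COQ5 fell (-0.67) and 15 did not pass. Of 14 TCA cycle genes, DLD, IDH3G and IDH2 fell (-0.49, -0.53 and -0.41) and 10 did not pass. Of 7 carriers of ADP and phosphate, SLC25A6, an ADP/ATP translocase, fell from 254, 256 and 237 to 175, 166 and 159 FPKM (log2 fold change -0.65, edgeR adjusted p = 4.82e-07), VDAC2 fell (-0.29) and VDAC3 rose (0.26). Of 10 cristae organisers ATAD3B rose (0.37) and APOOL and MICOS13 fell (-0.45 and -0.51). In DESeq2 VDAC3 and ATAD3B did not pass (adjusted p = 0.0988 and 0.111), and with log2(FPKM + 1) COQ5, VDAC2 and MICOS13 did not (limma adjusted p = 0.0732, 0.0757 and 0.0721). On leaving out 1 library, VDAC3 and ATAD3B were each lost in 5 of 6 cases, VDAC2 without si-SCR replicate 2, si-CyCoNP replicate 2 or si-CyCoNP replicate 3, and MICOS13 without si-SCR replicate 1 or si-CyCoNP replicate 1.

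Assembly genes of the other complexes mostly did not pass. Passing shares were 14.3% for complex III, 13.0% for complex IV and 33.3% for complex V, beside 35.4% of protein-coding genes tested. For complex II it was 0 of 4 in edgeR and in DESeq2, with 2 (SDHAF3 and SDHAF4) at an unadjusted edgeR p under 0.05. UQCC1 rose among 7 genes of complex III assembly and cytochrome c1 (0.41), COA6 rose (0.56) and SURF1 and TACO1 fell (-0.57 and -0.39) among 23 tested of complex IV, and TMEM242 fell (-0.53) among 3 of complex V. DESeq2 passed neither TACO1 nor TMEM242 (adjusted p = 0.072 and 0.0646). COA6 was lost without si-CyCoNP replicate 3 (edgeR adjusted p = 0.0873). SURF1, TACO1 and TMEM242 were each lost without si-SCR replicate 2, without si-CyCoNP replicate 2 and without 1 further library (edgeR adjusted p of at most 0.123).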

How the data were processed

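Per the labels, total RNA of 6 SK-N-BE libraries was depleted of ribosomal RNA and prepared with a stranded kit for paired-end sequencing. Per the methods and the submitters' processing notes, the authors trimmed reads with Trimmomatic 0.39 and Cutadapt 3.2, removed ribosomal reads with Bowtie2 2.4.2 and aligned the rest to GRCh38 with STAR 2.7.7a. The deposited count table held whole-number counts per gene (Ensembl release 99) produced by the authors through the GeneCounts option of STAR, which keeps uniquely mapping fragments and drops those that overlap 2 genes of a strand. The deposited FPKM table, made by the authors from these counts, scales them by gene length and library total, with no composition scaling. Counting drops therefore lower genes with close copies or shared exons. Totals ran from 3762009 to 4799407 per library, and no molecular identifiers are named, so PCR duplicates may be among them.

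Groups and replicate numbers came from the sample titles. Genes were matched to GENCODE v44 by identifier. Genes with a mean of at least 1 FPKM in either group (13966) were tested with TMM scaling and the quasi-likelihood test of edgeR 4.0.16 (R 4.3.3), with Benjamini-Hochberg adjustment over all of them. The fit was also run on simulated counts in which far fewer genes changed than passed here, and no call rests on that run. A gene rose or fell at an adjusted p under 0.05 and was called at a log2 fold change beyond 1 as well. DESeq2 1.42.0, other scalings and filters, limma 3.58.1 on log2(FPKM + 1) and log2(FPKM + 0.1), a length offset, a replicate block and the omission of each library were alternatives. Described in full were ATP5PO, called members, per complex the 2 members of smallest p in each direction and the most abundant one, isoform sets, and of each list the 3 genes of smallest p in each direction. Other members that passed are named to account for them. A few genes, members among them, are not reported here, while counts over lists include them. The members and lists were chosen with earlier results of these data known.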

Additional observations from a re-analysis of the deposited data

How the results depend on the processing

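In all 16 alternatives NDUFA6 and SDHD were called lower and 0 members higher, and the median of the members lay 0.102 to 0.144 below that of all genes on the log2 scale. Of 30 named members tested, 19 kept their direction and their side of the threshold in every alternative that tested them. With library totals alone 12 members passed higher and 10 lower, with a median of -0.051. With log2(FPKM + 1) there were 11 lower with a median of -0.0497, and with log2(FPKM + 0.1) the median was -0.0544. Neither scale corrects for library composition. With 1 library left out, members passing lower ran from 10 to 20, members passing higher from 7 to 11 and the median from -0.14 to -0.10. Leaving out si-SCR replicate 2 gave 11 lower, si-CyCoNP replicate 1 gave 10 and si-CyCoNP replicate 2 gave 11, with 1 library fewer in the fit. DESeq2 gave 8 higher and 12 lower. The log2 fold change of COX7A2 turned to 0.0479 with library totals, 0.0469 and 0.0477 on the FPKM scales, 0.0162 when si-SCR replicate 2 was omitted and 0.0157 when si-CyCoNP replicate 1 was, in a range of -0.0622 to 0.0162 over such omissions. That of UQCRH turned to -0.0077 and -0.008 with the same omissions (range to 0.113), and that of COX4I2 to 0.529 and 0.0364 when si-CyCoNP replicate 1 or replicate 3 was omitted (lowest value -1.47). None of these 3 passed in any alternative of edgeR, DESeq2 or limma. Of all 27 members that passed, 13 lost the threshold in at least 1 alternative (NDUFS7, SDHB, UQCR11, UQCRC1, NDUFB6, NDUFB5, NDUFB11, NDUFA8, NDUFAB1, COX5B, ATP5F1C, ATP5F1E and ATP5MJ). Of the 60 tested members that did not pass, 8 gained it in at least 1 alternative (COX4I1, COX6B1, COX7B, NDUFA1, NDUFAF4, ATP5F1A, NDUFAF1 and NDUFB10). Deviations of libraries with the same replicate number correlated at 0.091, 0.073 and 0.108, and all other pairs negatively. Deviations were centred within each group of 3 libraries, so positive values in some pairs push the others negative. The negative pairs are therefore no separate sign of pairing. The labels state no pairing, and it was not tested. With the replicate block 12 members passed higher and 20 lower, with a median of -0.12, and ATP5PO was at -0.29 (edgeR adjusted p = 0.136). ATP5PO passed in 0 of the 16 alternatives, at -0.42 to -0.03 with adjusted p from 0.136 to 0.927 over edgeR, DESeq2 and limma. Depth limits the low members most, since the 11 untested ones had at most 14 counts.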
